A study of Mus musculus with 24 samples.

Results

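The genes described here encode the potassium channels of the mouse, outside the G protein-gated Girk channels and the chromosome segments that are present in an extra copy in the trisomic animals. They were chosen by symbol: of 99 genes in the GENCODE M21 annotation whose symbol starts with Kcn, 5 that do not code for protein, 4 Girk genes (Kcnj3, Kcnj5, Kcnj6 and Kcnj9) and 3 genes of the triplicated part of chromosome 16 (Kcnj15, Kcne1 and Kcne2) were left out. The remaining 87 members, of 55414 gene identifiers in the series, lie on 18 chromosomes. They comprise 40 voltage-gated pore subunits, 11 auxiliary subunits of voltage-gated channels, 10 inward rectifiers, 14 two-pore channels and 12 subunits of calcium- or sodium-activated channels. Enough counts for a test were reached by 71 of them.

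RNA was measured in male mice of about 6 months, either Ts65Dn, a trisomic model of Down syndrome, or disomic (2N), all born to Ts65Dn dams. The dams ate either a control diet with 1.1 g choline chloride per kg or a supplemented diet with 5.0 g per kg from conception to postnatal day 21, and every offspring ate the control diet after weaning. Each library held RNA of about 500 neurons stained for choline acetyltransferase (ChAT) and cut out by laser from the septum and diagonal band of the basal forebrain, so a library is a pool of cells from a frozen section, and neighbouring processes can be cut out with them. By the labels there were 6 control-diet 2N libraries, 6 control-diet Ts65Dn libraries, 4 supplemented 2N libraries and 8 supplemented Ts65Dn libraries; in the submitters' design 6 animals were planned for each. Replicate numbers below only name libraries. In such pools, fewer cells of a type and less RNA per cell cannot be told apart.

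Total counts per library ran from 4688277 to 13443457, with a median of 10010346, and 13102 to 22593 genes were detected. The labelled cell type was not borne out equally in all libraries. Chat, the defining gene, was under 1 CPM (read counts relative to library size, with TMM scaling) in 6 of 24. Among these, control-diet Ts65Dn 3, 5 and 6 also had low sums over 10 cholinergic markers, at 8.68, 92.65 and 106.93 CPM. The sum was not low in the others with little Chat. It was 226.73 CPM in Ts65Dn 7 and 260.97 CPM in 2N 3, both supplemented. Control-diet 2N 5 had the highest sum of its group, 278.76 CPM. Slc18a3, another of these markers, was at 19.5 CPM in supplemented Ts65Dn 7, 5.63 in supplemented 2N 3 and 1.34 in control-diet 2N 5. It was at 0, 0 and 2.06 CPM in control-diet Ts65Dn 3, 5 and 6. Whether libraries with little Chat lacked cholinergic neurons was not tested. Summed over 7 glutamatergic markers, the control-diet Ts65Dn libraries ran from 295 to 3558 CPM against 160 to 849 CPM in control-diet 2N libraries. Over 78 tested genes of the triplicated part of chromosome 16, 6 libraries were nearer to the opposite genotype's mean level than to that of their own label, 3 of them control-diet 2N, 1 control-diet Ts65Dn and 2 supplemented Ts65Dn. Xist, which male cells do not normally express, had 80 to 237 counts in 4 libraries. The count of members called was 0 in all 5 comparisons below also without the 6 libraries with little Chat, without the 6 nearer to the opposite genotype, and without the 4 with Xist.

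Potassium channels let potassium ions leave or enter a cell down their gradient and so set the resting potential, end the action potential and space the spikes of a neuron. Voltage-gated channels open on depolarization and are built from pore subunits, with beta subunits and the calcium-binding KChIP proteins attached. Inward rectifiers and two-pore channels conduct near rest, and calcium- or sodium-activated channels open on the ions that flow in during activity. Cholinergic neurons of the basal forebrain release acetylcholine onto hippocampus and cortex, and several of these channels shape their firing.

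Members were unevenly expressed across families. On the per-length scale of TPM (counts divided by transcript length and scaled to the library), 29 of 87 members had a median of at least 10 over the 24 libraries, 51 of at least 1, and 23 had a median of 0. All 3 beta subunits and all 4 KChIP genes were among the 29, as were 14 of 40 voltage-gated pore subunits and 5 of 12 calcium- or sodium-activated subunits, but only 2 of 14 two-pore channels (Kcnk1 and Kcnk2) and 1 of 10 inward rectifiers (Kcnj10). In all 24 libraries 37 members were detected, and 8 were detected in 3 or fewer (Kcna10, Kcne3, Kcnj1, Kcnk15, Kcnk16, Kcnk18, Kcnmb3 and Kcnu1). Members together took 0.215% to 0.457% of the counts of a library.

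Among the pore subunits, all 4 Kcnc genes of the Kv3 family, whose fast channels allow high firing rates, had a median of at least 10 TPM (3 of 4 with 1 fixed length per gene, where Kcnc4 was at 9.31), beside 3 of 8 Kcna, 3 of 5 Kcnq, 2 of 3 Kcnd, 1 of 2 Kcnb and 1 of 8 Kcnh genes. None of the 10 modifier subunits, which are silent alone and alter other channels, did so. Kcnc1, a Kv3 subunit, had a median of 75.3 TPM (range 12.6 to 271) and Kcnh2, the Erg1 channel, of 53.5 TPM (2.62 to 104). The ranges of both genes overlapped, so their order does not hold in each library. Kcna2, which sits beside the nodes of myelinated axons and at axon initial segments, had a median of 41.4 TPM, with a lowest value of 7.84 and a highest of 84.3.

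In the other families the medians of neighbouring genes were mostly close, with overlapping ranges. Kcnab2, a beta subunit of Kv1 channels, had the highest median of all members at 227 TPM, but its estimated transcript length ran from 696 to 3056 bases between libraries, which moves its TPM. Kcnt1, the sodium-activated Slack channel, had 63.0 TPM and Kcnma1, the pore of the BK channel, 41.5 TPM. Kcnj10, the Kir4.1 channel that is best known from astrocytes and oligodendrocytes, had 26.5 TPM (7.81 to 56.9), above Kcnj11 (7.88 TPM), the pore of ATP-sensitive channels, Kcnj4 (5.70 TPM) and Kcnj16 (5.37 TPM), a partner of Kcnj10. Of the two-pore channels, Kcnk1 had 19.2 TPM, Kcnk2 11.4 TPM and Kcnk3 7.77 TPM.

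**Figure D1:**
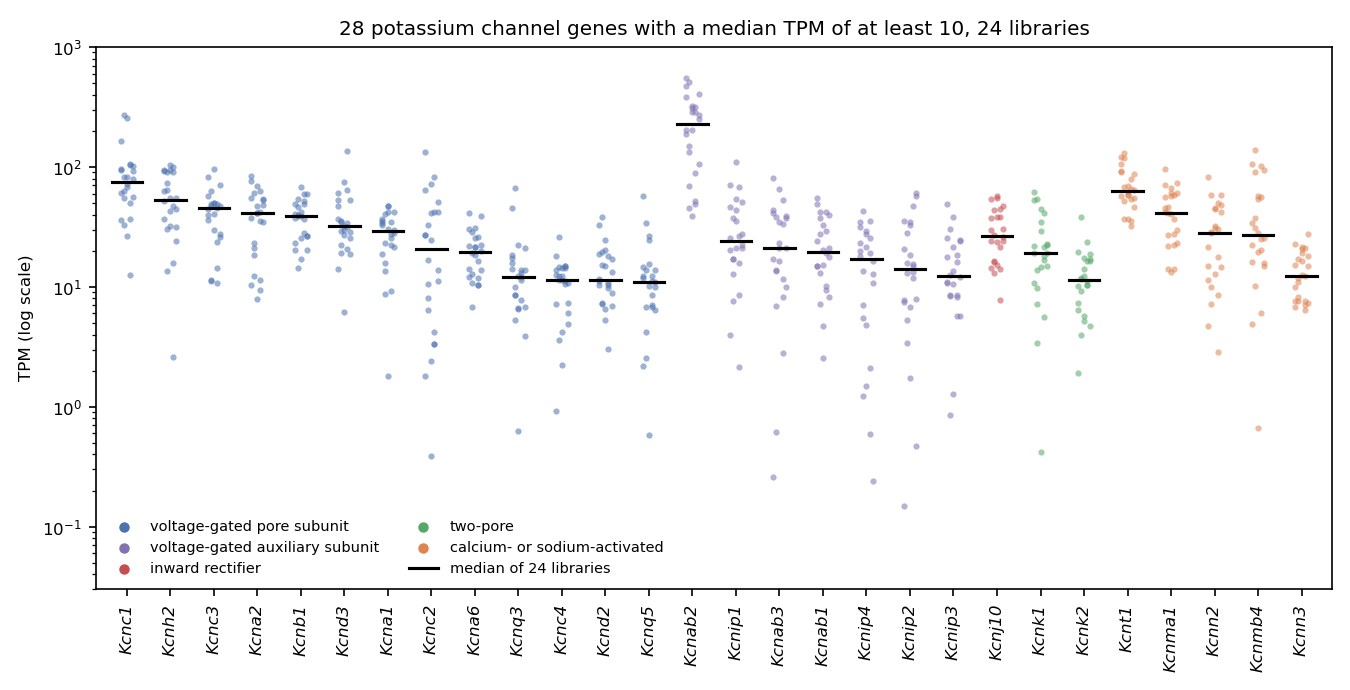
TPM (log axis) of 28 members with a median of at least 10, each point 1 of 24 libraries and the bar their median, coloured by family. Kcnab2 has the highest median (227 TPM), and the ranges of neighbouring genes overlap.

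The first comparison asked how trisomy relates to channel expression on the control diet. No member passed the test: 0 of 71 reached an adjusted p under 0.05 in edgeR, where 0.336% of the 19967 genes tested were called. DESeq2, which called 1.67% of all genes, and limma-voom, which called 0.015%, also called 0 members. In 0 of 71 members were the 2 groups of libraries without overlap, beside 0.631% of all genes. At an unadjusted p under 0.05, 9 members were found, or 12.7% of them, beside 10.9% of all genes. The median log2 fold change (Ts65Dn minus 2N) was 0.03 over the members and -0.02 over all genes, and 39 of 71 members had a positive value.

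Kcnj10 had the smallest p of the members. Its levels in control-diet 2N libraries 1 to 6 were 152, 189, 212, 174, 215 and 105 CPM, and in control-diet Ts65Dn libraries 1 to 6 they were 71.3, 118, 66.6, 174, 74.9 and 64.7 CPM. All 6 Ts65Dn values lay below the 2N mean and 4 lay below every 2N value, while Ts65Dn library 4 lay among the 2N values. The means were 175 ± 41.4 (SD, n = 6) and 95.0 ± 43.7 CPM (SD, n = 6), a log2 fold change of -0.88 ± 0.27 (SE) with an adjusted p of 0.187 in edgeR. Without Ts65Dn library 4 the log2 fold change was -1.14 and passed the test (edgeR adjusted p = 0.0296). Without the 6 libraries with Chat under 1 CPM it was -0.48 (edgeR adjusted p = 0.737).

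Markers of other cell types were examined beside Kcnj10. Of 8 astrocyte markers 7 had negative values (median -0.55) and of 8 oligodendrocyte markers all 8 (median -0.45), with 0 called in either list. The summed oligodendrocyte markers were 2895 to 3813 CPM in control-diet 2N libraries. In control-diet Ts65Dn libraries 1 to 6 they were 2233, 3990, 721, 3452, 3244 and 1530 CPM. The summed astrocyte markers were 1883 to 2515 CPM in control-diet 2N and 1678 to 2185 CPM in control-diet Ts65Dn libraries. The part of these cells in the Kcnj10 values was not tested.

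**Figure D2:**
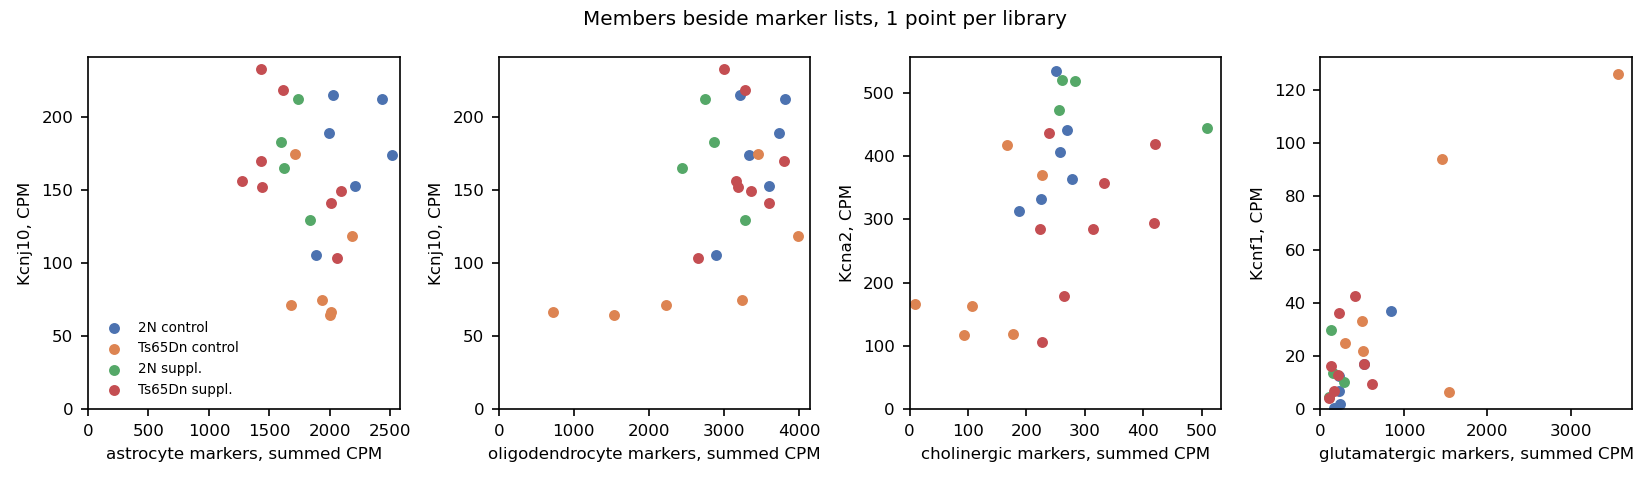
CPM of a member (y axis) against the summed CPM of a marker list (x axis), 1 point per library, coloured by group; the panels pair Kcnj10 with astrocyte and oligodendrocyte markers, Kcna2 with cholinergic and Kcnf1 with glutamatergic markers. Among control-diet Ts65Dn libraries, library 3 has the highest glutamatergic sum (3558 CPM) and the highest Kcnf1 level (126 CPM). Library 6, with the next highest sum (1536 CPM), has the lowest Kcnf1 level (6.30 CPM), and library 5 (1462 CPM) has 94.2 CPM.

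Kcna2 was next. Control-diet 2N libraries 1 to 6 had 407, 441, 313, 332, 364 and 535 CPM, and control-diet Ts65Dn libraries 1 to 6 had 118, 418, 166, 370, 117 and 163 CPM. Ts65Dn libraries 1, 3, 5 and 6 lay below every 2N library, and libraries 2 and 4 lay within the 2N range. The log2 fold change was -0.82 ± 0.29 (SE), with an edgeR adjusted p of 0.208. With no filter on low counts it was called (-0.84, edgeR adjusted p = 0.0395), and without the libraries with Chat under 1 CPM it was -0.45 (edgeR adjusted p = 0.763). Summed cholinergic markers were 8.7 to 226 CPM in control-diet Ts65Dn libraries and 188 to 279 CPM in control-diet 2N libraries. Of the 10 markers 9 had negative values, with 0 called, and of 9 general neuron markers 7 did (median -0.41, 1 called lower), their sum being 6273 to 8093 CPM in 2N and 3506 to 6960 CPM in Ts65Dn libraries. The part of this in the values of Kcna2 and of Kcnc2 below was not tested.

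Other voltage-gated genes showed wide spreads. Kcnc2, a Kv3 subunit, averaged 73.8 ± 26.4 CPM in control-diet 2N and 25.3 ± 20.1 CPM in control-diet Ts65Dn libraries (SD, n = 6 each), a log2 fold change of -1.54 ± 0.57 (SE; edgeR adjusted p = 0.228), with 5 of 6 Ts65Dn values below every 2N value. Kcnab3, a beta subunit, had 1.07, 23.3, 9.41, 100.2, 0.54 and 15.7 CPM in the Ts65Dn libraries against 38.1 to 86.9 CPM in 2N. Its log2 fold change of -1.39 (edgeR adjusted p = 0.354) became -2.71 without Ts65Dn library 4 (edgeR adjusted p = 0.0169). Exons of Kcnab3 overlap those of an antisense gene, Kcnab3os, which averaged 1.97 CPM. How the counting used strand is not given in the sources used here. Kcnf1, a modifier subunit, had 0.27 to 36.8 CPM in 2N and 22.0, 33.2, 126, 24.8, 94.2 and 6.30 CPM in Ts65Dn libraries (log2 fold change 2.02; edgeR adjusted p = 0.23). Without the libraries with Chat under 1 CPM that value was 0.81, and without those nearer to the opposite genotype 2.86. Of 7 glutamatergic markers 3 had positive values, 1 of them called; their part in the Kcnf1 values was not tested.

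By family, 8 of 9 calcium- or sodium-activated subunits had a positive value (median 0.33), and 5 of 7 auxiliary subunits had a negative one (median -0.42). Inward rectifiers had 5 of 9 negative values with a median of -0.88, and two-pore channels 5 of 10 with a median of 0.01. No member of any family passed the test. Kcnc1 averaged 303 ± 55.3 CPM in 2N and 251 ± 111 CPM in Ts65Dn libraries (SD, n = 6 each).

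**Figure D3:**
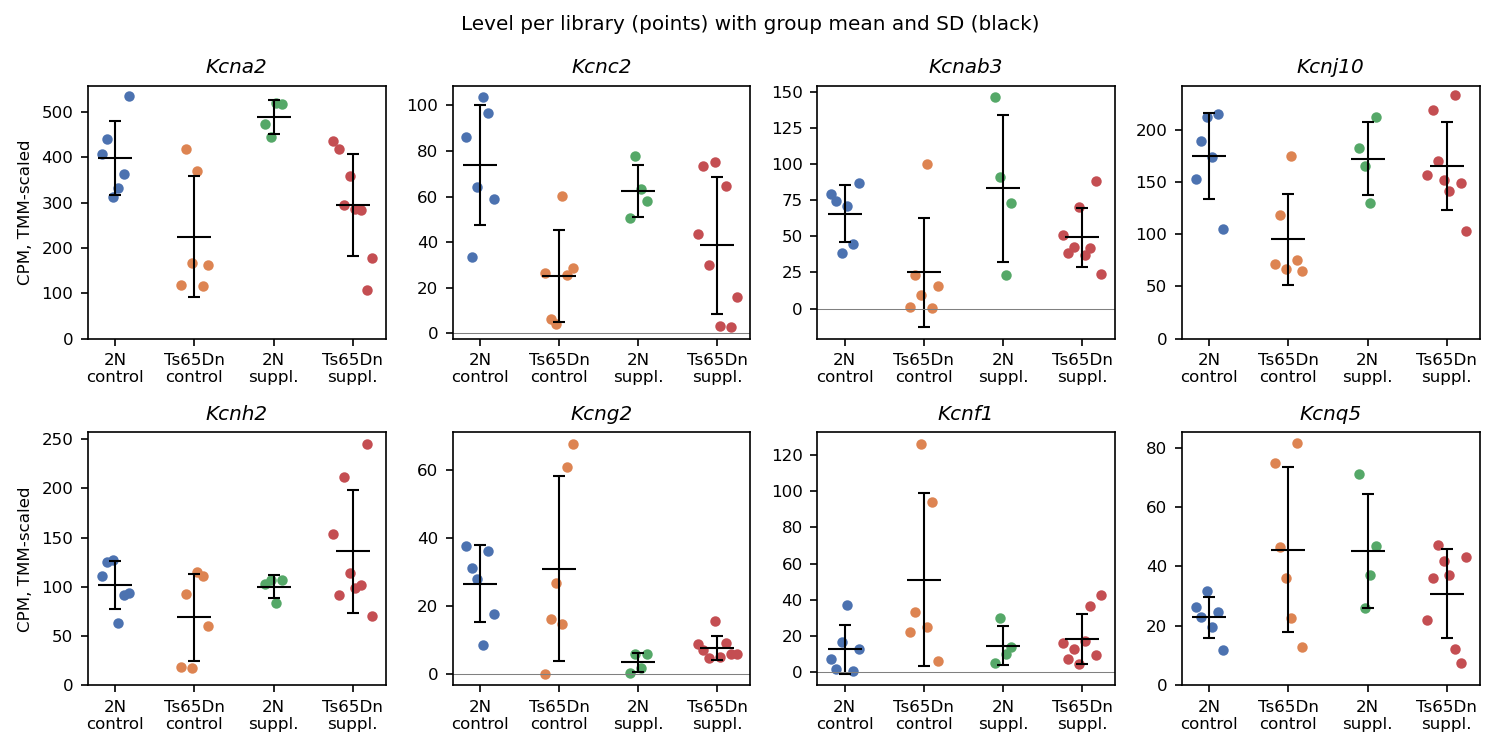
CPM of 8 members in each library (points), by group, with the mean and SD in black. Kcna2 and Kcnj10 are low in 4 of 6 control-diet Ts65Dn libraries, and the groups overlap in that comparison for all 8.

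The second comparison asked what maternal supplementation was associated with in Ts65Dn neurons. Again 0 of 71 members passed, where 0.13% of all genes were called by edgeR; DESeq2 (1.23% of all genes) and limma-voom (0.02%) called 0 members as well. The groups overlapped in every member, and were apart in 0.0701% of all genes. At an unadjusted p under 0.05 there were 7 members, 9.86% of them, beside 9.62% of all genes. Both this comparison and the first use the control-diet Ts65Dn libraries, so low values in those libraries enter both with opposite sign.

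Kcnj10 was 156, 219, 170, 152, 141, 233, 149 and 103 CPM in supplemented Ts65Dn libraries 1 to 8. All 8 lay above the control-diet Ts65Dn mean of 95.0 CPM, but the groups overlapped. The log2 fold change (supplemented minus control) was 0.80 ± 0.26 (SE; edgeR adjusted p = 0.228), and 0.52 without the libraries with Chat under 1 CPM. Kcnh2 averaged 136 ± 62.6 CPM (SD, n = 8) against 68.9 ± 44.0 CPM (SD, n = 6), a log2 fold change of 0.98 (edgeR adjusted p = 0.25), with control-diet Ts65Dn libraries 1 and 3 at 18.4 and 17.4 CPM. Kcng2, a modifier subunit, was 4.58 to 15.4 CPM in supplemented libraries and 0 to 67.5 CPM in control-diet ones (log2 fold change -2.02; edgeR adjusted p = 0.275). Without the libraries with Chat under 1 CPM the Kcng2 value was -0.31 (edgeR adjusted p = 0.977). Of 10 two-pore channels 8 had negative values (median -0.64), and of 9 inward rectifiers 6 had positive ones (median 0.74). Of 8 oligodendrocyte markers 6 had positive values here (median 0.46, 0 called). Their sum was 721 to 3990 CPM in control-diet and 2658 to 3805 CPM in supplemented Ts65Dn libraries. Of 8 astrocyte markers 5 had positive values (median 0.10, 0 called). Their sum was 1678 to 2185 CPM (mean 1920) in control-diet and 1276 to 2095 CPM (mean 1669) in supplemented Ts65Dn libraries. All 10 cholinergic markers had positive values (median 1.46, 0 called), and 6 of 7 glutamatergic markers negative ones (median -1.98, 1 called lower); the part of these in the members' values was not tested. Animal identifiers that start with 17 made up 8 of 12 control-diet libraries and 1 of 12 supplemented ones; with the start as a factor, 0 members passed in edgeR in any comparison.

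In 2N neurons the same diet comparison rested on 4 supplemented libraries. No member passed in edgeR, beside 0.00501% of all genes, nor in DESeq2 (1.09%) or limma-voom (0.0351%). At an unadjusted p under 0.05 there were 3 members (4.23%), beside 6.92% of all genes. Kcng2 had the smallest p: supplemented 2N libraries 1 to 4 had 0.07, 5.73, 1.60 and 5.64 CPM, below all 6 control-diet 2N libraries at 8.39 to 37.5 CPM. The log2 fold change was -3.01 ± 1.03 (SE; edgeR adjusted p = 0.566). Its exons overlap a gene on the opposite strand, which averaged 1.65 CPM. In this comparison all 7 glutamatergic markers had negative values (median -2.20) and 8 of 10 cholinergic markers positive ones (median 0.52), with 0 called, and their part in the Kcng2 values was not tested. Kcnk13, named after its values were seen, was the other member whose groups did not overlap, at 1.13 to 8.96 CPM against 9.96 to 28.6 CPM; such separation was found for 1.34% of all genes and 2 of 71 members. Kcnk9, the Task3 leak channel, averaged 29.4 ± 20.8 CPM (SD, n = 4) against 61.1 ± 18.4 CPM (SD, n = 6), and Kcnd2, a subunit of A-type current, had means of 50.8 and 89.6 CPM. Their edgeR adjusted p-values were 0.65 and 0.733. Kcnv1, a modifier subunit, was also among the 3 members at an unadjusted p under 0.05 in edgeR. It had 34.3 and 28.9 CPM in control-diet 2N libraries 3 and 4 and 0 in the rest of that group. In supplemented 2N it had 0.845 CPM in library 3 and 0 in the rest.

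On the supplemented diet, Ts65Dn and 2N neurons were compared directly. No member passed in edgeR, where 0.18% of all genes did, in DESeq2 (2.14%) or in limma-voom (0.275%), and 1 of 71 (1.41%) had an unadjusted p under 0.05, beside 9.49% of all genes. That member was Kcna2. Supplemented 2N libraries 1 to 4 had 473, 444, 520 and 519 CPM, and supplemented Ts65Dn libraries 1 to 8 had 436, 418, 295, 358, 285, 284, 106 and 179 CPM. All 8 Ts65Dn values lay below all 4 of 2N, a separation found for 0.606% of all genes and for no other member. Mitochondrial rRNA took 18.1% to 22.6% of the counts in supplemented 2N and 17.8% to 43.3% in supplemented Ts65Dn libraries. The highest share was in Ts65Dn library 7, which had the lowest Kcna2 level, and the lowest in library 2, at 418 CPM. Library 1, with the highest Kcna2 level of that group, had a share of 34.2%, and library 5, at 285 CPM, had 21.1%. Summed neuron markers were 5606 to 7069 CPM in supplemented 2N and 3737 to 6485 CPM in supplemented Ts65Dn libraries, and summed cholinergic markers 256 to 508 and 223 to 421 CPM. The part of these in the Kcna2 values was not tested. The log2 fold change was -0.73 ± 0.30 (SE; edgeR adjusted p = 0.426). Without the 6 libraries nearer to the opposite genotype, of which this comparison held 2, both Ts65Dn, it was -0.57 (edgeR adjusted p = 0.501). Of 7 auxiliary subunits 6 had negative values (median -0.56), among them Kcnab1 at 27.1 ± 15.9 CPM (SD, n = 8) against 53.5 ± 31.4 CPM (SD, n = 4; edgeR adjusted p = 0.533) and Kcnab2 at 198 against 263 CPM (edgeR adjusted p = 0.69).

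**Figure D4:**
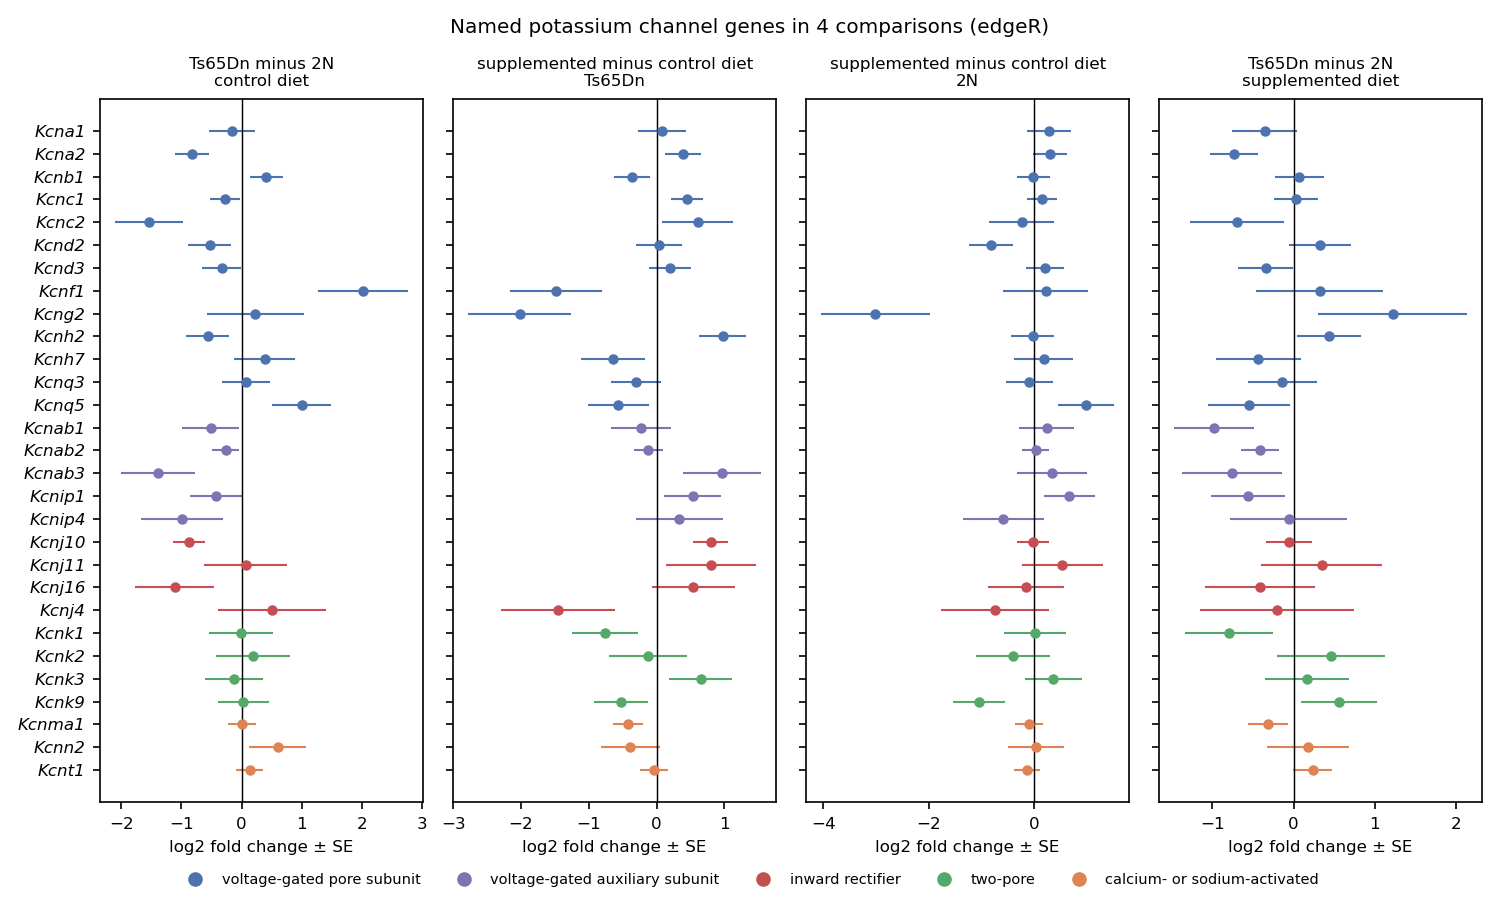
Log2 fold change (x axis, points) with its SE (bars) for 29 named members detected in at least 20 libraries, in 4 comparisons and coloured by family; the x axes differ between panels. None passed the test.

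Whether the diet difference itself depended on genotype was tested as an interaction. No member passed in edgeR, beside 0.00501% of all genes, nor in DESeq2 (1.38%) or limma-voom (0.0%), and 2 members (2.82%) had an unadjusted p under 0.05, beside 8.43% of all genes. Kcnq5, an M-current subunit, had a difference of -1.55 ± 0.70 (SE; edgeR adjusted p = 0.526): its mean went from 22.8 CPM on the control to 45.3 CPM on the supplemented diet in 2N, and from 45.7 to 30.8 CPM in Ts65Dn libraries. Kcnj10 had a difference of 0.82 ± 0.40 (SE; edgeR adjusted p = 0.581).

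Levels were also summed over each family, as a description. Voltage-gated pore subunits summed to 2217 ± 120.3 and 2063 ± 258 CPM in 2N and Ts65Dn libraries of the control diet (SD, n = 6 each), and to 2326 ± 176 (SD, n = 4) and 2154 ± 294 CPM (SD, n = 8) in those of the supplemented diet, and the groups overlapped. Auxiliary subunits summed to 509 ± 98.9, 404 ± 76.1, 552 ± 90.2 and 390 ± 45.6 CPM in the same order of groups. The supplemented groups did not overlap in this sum, with 468 to 633 CPM in 2N and 310 to 461 CPM in Ts65Dn libraries. No test was made of it, and the sum was singled out after all sums were seen. Among single genes, 0.606% were without overlap in that comparison. Kcnab2, the largest part of the sum, overlapped, at 187 to 347 CPM in 2N and 123 to 269 CPM in Ts65Dn libraries. Inward rectifiers summed to 161 ± 52.7 CPM in control-diet Ts65Dn libraries, and in the same order the other groups had 248 ± 59.9, 248 ± 29.5 and 233 ± 51.1 CPM, a sum in which Kcnj10 is the largest part.

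**Figure D5:**
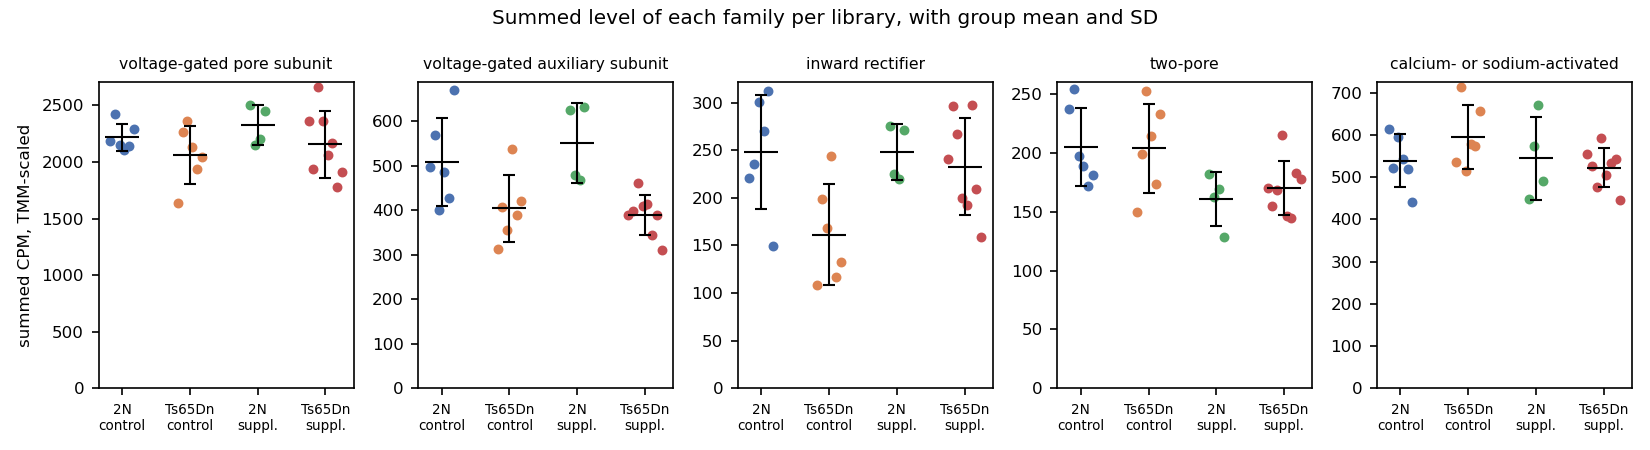
Summed CPM of each family per library (points), by group, with the mean and SD in black; y axes start at 0. The auxiliary sum, of which Kcnab2 is the largest part, is 468 to 633 CPM in supplemented 2N and 310 to 461 CPM in supplemented Ts65Dn libraries, and was not tested.

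Kcnj13, a channel of epithelia, was at 0 counts in all 6 control-diet Ts65Dn libraries. Against a floor of 3 counts over that group it was at least 8.21-fold higher in control-diet 2N libraries, from 28 counts in all. These were all in library 3, and without it 0 counts and no bound were left. In supplemented Ts65Dn libraries it was at least 17.1-fold higher, from 64 counts in all. Of the 64 counts, 38 were in supplemented Ts65Dn library 2, and without it the bound was 8.2-fold. The highest counts, 52 and 283, were in supplemented 2N libraries 1 and 3. Control-diet 2N library 3 also had the highest sum of 4 ependyma and choroid plexus markers (80.9 CPM). Library 4 of that group had the next highest sum, 60.3 CPM, with 0 Kcnj13 counts. Supplemented 2N libraries 1 and 3 had sums of 8.31 and 4.41 CPM. In control-diet Ts65Dn libraries the sum was 0 to 18.2 CPM, with Folr1 and Ccdc153 at 0 in all. Kcnj13 exons overlap Gigyf2 on the opposite strand, which averaged 170 CPM. The part of either in these values was not tested.

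Of 33 genes that partner potassium channels or maintain the potassium gradient, 32 were tested and 0 were called by edgeR in any of the 5 comparisons. On the control diet 11 had positive and 21 negative values for Ts65Dn minus 2N, with 8 at an unadjusted p under 0.05 (25.0%, beside 10.9% of all genes). For supplementation in Ts65Dn 12 had such a p (37.5%, beside 9.62% of all genes), with 16 values of either sign. Chrm1, the muscarinic receptor that closes M channels, had a log2 fold change of 2.00 there and of -1.99 for supplementation in Ts65Dn (edgeR adjusted p = 0.276 and 0.256). Both comparisons share the control-diet Ts65Dn libraries.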

How the data were processed

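Libraries came from a stranded low-input total RNA kit and were read as single reads of 50 cycles, per the labels' protocols. Trimmomatic 0.39, STAR and RSEM are named, with GRCm39 and mm10 as builds, per the submitters' processing notes; which build was used for counting is not stated there. The authors deposited RSEM expected counts for all libraries and, per library, TPM values. Here expected counts were rounded, TMM-scaled and tested with edgeR 4.0.16 (quasi-likelihood F test, filterByExpr minimum count 10, all 24 libraries in 1 fit of 4 group means, Benjamini-Hochberg adjustment over 19967 genes, threshold 0.05). DESeq2 1.42.0 and limma 3.58.1 (voom) were alternatives. On simulated data, changes were put only into genes above the median level and only into the control-diet Ts65Dn group. The fit recovered their direction and size but called only a minority of them. Genes with lower levels and changes in the other groups were not covered. Gene names came from GENCODE M21, which matched 52081 of 55414 identifiers. Levels between genes are TPM, and between libraries CPM. The labels give animal identifiers but p-values measure only the spread between these libraries. Named are the 4 members with the smallest p per comparison, the 3 with the highest median TPM per family and 21 fixed members, 34 in all, of which 1 is not reported here; a few others are named for a count. The members and lists were chosen with earlier results of these data known.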

Additional observations from a re-analysis of the deposited data

Results flagged for a closer look

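Among 131 groups of 4 to 8 libraries of a named member, 16 held a library far from the rest by Dixon's criterion, or 12.2%. In 4 of these a single library was above 0 counts, so the criterion was met by construction; of the other 127 groups it was met in 12, or 9.4%, where chance gives about 1 in 20 for normally distributed values. Values are log2 CPM. Supplemented Ts65Dn library 7, 1 of those with the fewest detected genes, was the lowest of its group for Kcnd3 (4.92), Kcnh7 (0.08), Kcnk1 (0.93) and Kcnq3 (3.59). In the same group, library 3 was lowest for Kcnd2 (4.54) and library 5 for Kcnn2 (3.09). Supplemented 2N library 3 was lowest for Kcnh2 (6.39) and Kcnip4 (-0.56) and highest for Kcnv1 (0.08); in that group library 4 was highest for Kcnh8 (-0.75) and library 2 for Kcnj8 (-0.94), in each case the only library above 0 counts. Control-diet Ts65Dn library 1 was lowest for Kcng2 (-2.25), library 3 lowest for Kcnn2 (3.70) and library 2 highest for Kcnj8 (1.97). Control-diet 2N library 3 was highest for Kcnj13 (1.40), again the only one above 0 counts, and library 6 lowest for Kcnj4 (1.04).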

How the results depend on the processing

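Of 133 recomputed counts of members called, 131 were 0. The exceptions were in Ts65Dn minus 2N on the control diet: 1 member with no filter on low counts (Kcna2), and 0 to 2 when each library was left out in turn, with 2 (Kcnj10 and Kcnab3) without control-diet Ts65Dn replicate 4. Of 699 values of single genes, 693 kept their sign and were not called, 3 kept it and were called, and 3 changed sign or went to 0, each under a setting added after seeing the data. Kcnip3 for diet in Ts65Dn was 0.13 without the libraries with Chat under 1 CPM. Without those nearer to the opposite genotype, Kcnv1 for diet in 2N was 4.11 and Kcnj13 on the control diet was 0.00. With each library left out in turn, that Kcnv1 value ran from -9.66 to -4.70. Within animal identifiers that start with 17, which held 4 libraries of each control-diet group, Kcnj10 was -0.88 and Kcna2 -0.91 (edgeR adjusted p = 0.671 and 0.554). No other identifier start held both control-diet genotypes. Members with at least 10 TPM numbered 29 by the median, 32 by the mean and 27 at a fixed length. No paired analysis was possible because the labels do not number replicates across groups; with the start of the animal identifier as a factor, Kcna2 was -0.76 on the supplemented diet (edgeR adjusted p = 0.524) and Kcnj10 0.73 for diet in Ts65Dn (edgeR adjusted p = 0.552).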
